A study of Mus musculus with 15 samples.

Results

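The genes described here encode 10 antimicrobial peptides and proteins of mouse skin: the beta-defensins *Defb1*, *Defb3*, *Defb4*, *Defb6* and *Defb14*, the cathelicidin *Camp*, and the secreted proteins *Lcn2*, *Slpi*, *Pglyrp1* and *Ltf*. They were matched by symbol among the 21110 genes measured in ear RNA, and all 10 were found. RNA was taken from ears of C57BL/6 mice kept free of specific pathogens, and each of the 15 mice gave 1 library. The groups were wild type at 2 weeks (n = 4), *Socs3* cKO at 2 weeks (n = 4), wild type at 10 weeks (n = 3) and *Socs3* cKO at 10 weeks (n = 4). In the cKO, *Socs3* is deleted through keratin 5, whose promoter is active in basal keratinocytes, so other cells of the ear keep the gene. No treatment was given. The values are FPKM, reads scaled by transcript length and by the mapped reads of the library, which the authors computed from single reads of 50 bases aligned to mm9.

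Antimicrobial peptides and proteins are the chemical arm of the skin barrier. Beta-defensins are small cationic peptides, folded by cysteine bridges, that disrupt microbial membranes and attract immune cells through chemokine receptors. The cathelicidin precursor made from *Camp* is cut by proteases into a membrane-active peptide. Lipocalin 2 (*Lcn2*) withholds iron by binding bacterial siderophores, and lactoferrin (*Ltf*) binds iron itself. *Slpi* inhibits leukocyte serine proteases, and *Pglyrp1* binds bacterial peptidoglycan. In inflamed skin many of these genes are known to be induced in keratinocytes by cytokines of the IL-17, IL-22 and IL-1 families, while *Camp*, *Ltf*, *Lcn2* and *Pglyrp1* are also granule genes of maturing neutrophils. *Socs3* is a feedback inhibitor of cytokine receptors that signal through STAT3.

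In mm9 the 5 beta-defensin genes lay on the plus strand of chromosome 8, each with 2 exons. *Defb14* (from 19194357 to 19195212), *Defb4* (from 19198706 to 19201545), *Defb6* (from 19225478 to 19228209) and *Defb3* (from 19293360 to 19295291) formed a cluster, and *Defb1* (from 22887071 to 22905657) lay further along. The coding sequences of the 3 beta-defensins on which the results turn are shown to make clear how short and how different these transcripts are. They run from start to stop codon of the mm9 annotation, and capitals mark the codons for cysteine.
*Defb6*: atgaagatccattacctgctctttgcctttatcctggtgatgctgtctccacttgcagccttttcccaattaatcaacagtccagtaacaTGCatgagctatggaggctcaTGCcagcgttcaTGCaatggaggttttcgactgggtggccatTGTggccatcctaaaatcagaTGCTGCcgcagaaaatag
*Defb14*: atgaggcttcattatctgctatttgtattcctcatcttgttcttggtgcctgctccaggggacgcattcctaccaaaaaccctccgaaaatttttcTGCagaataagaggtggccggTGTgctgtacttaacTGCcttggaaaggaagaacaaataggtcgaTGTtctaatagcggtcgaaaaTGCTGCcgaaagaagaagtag
*Defb1*: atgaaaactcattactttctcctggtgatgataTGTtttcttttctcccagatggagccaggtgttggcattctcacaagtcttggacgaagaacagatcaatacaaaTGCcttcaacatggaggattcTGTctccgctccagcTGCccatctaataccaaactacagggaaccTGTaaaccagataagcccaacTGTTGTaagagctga
Each of these sequences ends with a pair of adjacent cysteine codons shortly before the stop codon. *Defb6* and *Defb14* had 6 cysteine codons each, and *Defb1* had 7, of which the first lies in the stretch for the signal peptide. In pairwise alignment *Defb6* was 60.4% identical to *Defb14* and 62.6% identical to *Defb1* over the aligned coding bases. Of the 10 pairs among the 5 genes, *Defb4* and *Defb6* were the most alike, with 78.6%. No word of 32 bases from the exons of *Defb1*, *Defb6* or *Defb14* occurred again in the genome. In *Defb3* and *Defb4*, 18.3% and 11.7% of such words were repeated and the genes shared 2 words, so their low values could include reads that fit more than 1 place.

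The remaining genes are spread over 3 chromosomes. *Lcn2* (32240153 to 32243317) and *Slpi* (164179806 to 164214831) lie on the minus strand of chromosome 2. *Camp* (109749889 to 109751970, minus strand) and *Ltf* (110921796 to 110945270, plus strand) lie on chromosome 9, and *Pglyrp1* (19470039 to 19475787, plus strand) lies on chromosome 7.

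Some properties of the whole set of libraries touch every value below. Wild type mice had 9.71 to 10.3 FPKM of *Socs3* at 2 weeks and 2.02 to 4.81 at 10 weeks. The mice labelled *Socs3* cKO had 1.25 to 12.6 at 2 weeks, overlapping the wild type, and 29.8 to 47.7 at 10 weeks, above it. FPKM covers the whole gene and not the deleted part alone. At 2 weeks the mean was lower in the labelled cKO mice (6.67 against 10.2, log2 fold change -1.06) without passing the test (adjusted p = 0.180), and at 10 weeks the gene went against the label, so the genotypes rest on the labels. Each group has its own range of library numbers, so batch and condition cannot be told apart. The labels name keratinocytes as the source while RNA came from whole ear. All 12 keratinocyte markers found in the files were at 1 FPKM or more in every mouse, and markers of fibroblasts, muscle and blood were present too. Fewer cells of a type and less RNA per cell cannot be told apart in such samples. Read counts were not analysed here. From the spacing of low values in transcripts over 1500 bases, each library had an estimated 11700000 to 16800000 mapped reads. For *Defb3*, *Defb14* and *Camp* the values were whole multiples of a smallest step, taken here as 1 read (23 values of up to 8 steps, 22 of them within 0.1 of a whole number). A gene listed at 0 may still be a failed estimate.

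FPKM is scaled by transcript length, which allows levels of different genes to be set side by side. The smallest step was worth 2.93 reads over the full transcript for *Defb14*, 2.09 for *Defb3* and 1.39 for *Camp*, so values of the shortest transcripts may be raised by such factors relative to longer ones, and the ranks and shares of the genes carry this. *Defb6* was the most abundant of the 10 in every group. Its mean FPKM was 252 ± 11.1 (SD, n = 4) in the wild type at 2 weeks, and only 1.1% of all genes had a higher mean there. *Defb1* came next, at 28.8 ± 1.39 (SD, n = 4), and its range did not overlap that of any other member in that group. *Lcn2* (1.84 ± 0.521), *Slpi* (1.69 ± 0.284) and *Pglyrp1* (1.60 ± 0.558) followed with overlapping ranges. *Camp* stayed below 1 FPKM in 14 of the 15 mice and *Ltf* in all of them. Neither the cathelicidin nor the lactoferrin gene was thus appreciably expressed in these ears.

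**Figure D1:**
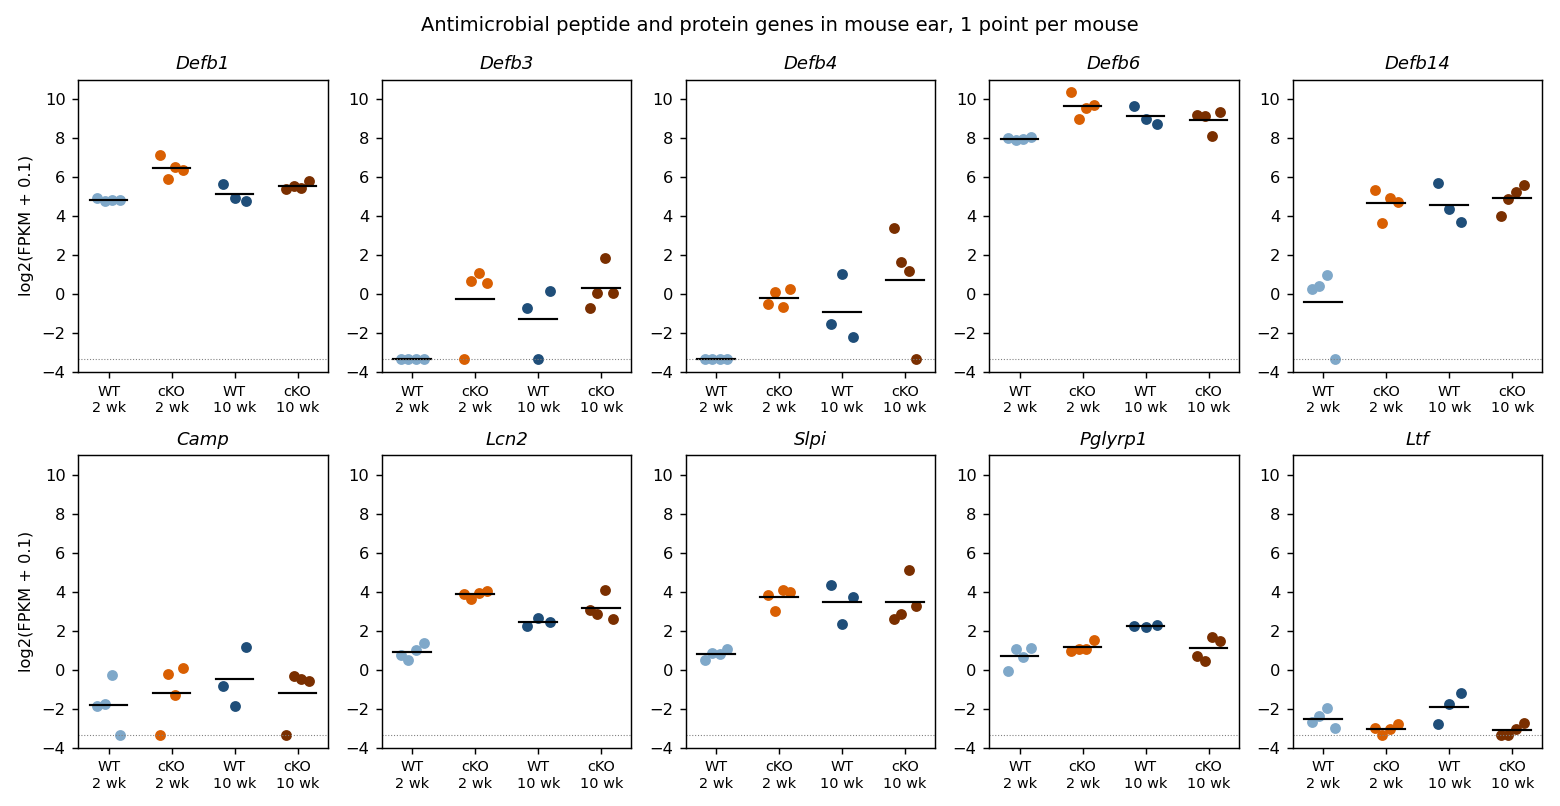
Level of each gene as log2(FPKM + 0.1) in every mouse, with 1 panel per gene, 1 point per mouse and a bar at the group mean; WT is wild type, cKO is labelled *Socs3* cKO, wk is weeks, and the dotted line marks 0 FPKM. *Defb1*, *Defb6*, *Defb14*, *Lcn2* and *Slpi* show the 4 cKO mice at 2 weeks above all 4 wild type mice, while the groups at 10 weeks overlap.

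At 2 weeks *Defb1*, *Defb6*, *Defb14*, *Lcn2* and *Slpi* were higher in the mice labelled *Socs3* cKO than in the wild type. Of the 10 genes, 5 were called up and none down, where 7.24% of the 13524 genes tested were called up and 7.19% down (limma on log2(FPKM + 0.1), adjusted p below 0.01 and |log2 fold change| of at least 1). All 5 had every labelled cKO mouse above every wild type mouse, as did 22.9% of the genes tested. The exact permutation test on each gave p = 0.0286, the smallest that 4 mice against 4 allow. The median log2 fold change of the 7 members that passed the filter on low values (FPKM of at least 1 in at least 3 mice) was 2.90, against -0.21 over all genes tested. *Defb3* was among these 7 only because of its values in the labelled cKO mice.

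*Lcn2*, the siderophore-binding lipocalin, had the most even rise. Wild type mice had an FPKM of 1.59, 1.32, 1.90 and 2.54, and labelled cKO mice one of 14.9, 12.4, 15.2 and 16.2. The groups lay far apart and neither held a deviating mouse. On the log2 scale the difference was 2.96 (SE 0.21, adjusted p = 7.33e-05), which is 7.79-fold on this scale.

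*Slpi*, the protease inhibitor, moved to a similar extent. Wild type mice had 1.33, 1.74, 1.66 and 2.02 FPKM, and labelled cKO mice had 14.1, 8.002, 16.7 and 15.7. Replicate 2 was the lowest of the labelled cKO mice and still lay above all of the wild type. This made a log2 fold change of 2.90 (SE 0.26, adjusted p = 0.000164), or 7.46-fold.

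Among the beta-defensins, *Defb14* showed the widest difference. This gene encodes the mouse counterpart of human beta-defensin 3, an inducible peptide active against Gram-positive bacteria. It was listed at 1.08, 1.22, 1.84 and 0 FPKM in wild type mice and was at 40.5, 12.3, 30.8 and 26.5 in the labelled cKO mice. The wild type values came from about 1, 1, 2 and 0 reads and the others from about 38, 13, 33 and 31, so the groups did not overlap but the wild type level is imprecise. Per mapped read the ratio was 25.3, with an exact 95% interval of 9.61 to 94.3 that covers counting error only. The fitted log2 fold change was 5.09 (SE 0.88, adjusted p = 0.00359), but it depends on the wild type mouse listed at 0 and on the pseudocount. It was 4.13 without that mouse (adjusted p = 0.000976), 3.79 with a pseudocount of 1 (adjusted p = 0.000229) and 5.99 with a pseudocount of 0.01 (adjusted p = 0.0165). The call was lost in 4 of the 8 fits that left out a mouse, without wild type replicate 1 (adjusted p = 0.0109) or 2 (0.0101) and without labelled cKO replicate 3 (0.0137) or 4 (0.0124).

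*Defb6*, the dominant beta-defensin of these ears, was at 254, 240, 248 and 266 FPKM in wild type mice and at 1336.14, 509, 747 and 822 in the labelled cKO mice. The wild type values were tightly grouped, whereas the labelled cKO mice spread widely. The log2 fold change was 1.67 (SE 0.27, adjusted p = 0.00249), or 3.19-fold. Without any 1 of the wild type mice the adjusted p was between 0.0102 and 0.0114, which misses the threshold.

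*Defb1*, the beta-defensin regarded as constitutive in epithelia, rose by a similar factor. Wild type mice had 30.8, 27.6, 28.2 and 28.7 FPKM, and labelled cKO mice had 140.5, 60.9, 93.4 and 81.6. The groups did not overlap, and as for *Defb6*, replicate 1 was the highest and replicate 2 the lowest of the labelled cKO mice. On the log2 scale this was a rise of 1.64 (SE 0.23, adjusted p = 0.00154), or 3.11-fold.

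The other 5 genes were not called at 2 weeks. *Defb3* was listed at 0 in all 4 wild type mice and at 0, 1.51, 1.99 and 1.36 FPKM in the labelled cKO mice (adjusted p = 0.0229, exact permutation p = 0.143), which corresponds to about 0, 3, 4 and 3 reads. *Defb4* was likewise listed at 0 in wild type mice and at 0.595, 0.972, 0.528 and 1.08 in the labelled cKO mice. It did not pass the filter, and the exact permutation test gave p = 0.0286. No fold is given for these genes, because the wild type was listed at 0. *Pglyrp1* was at 0.867, 1.96, 1.48 and 2.1 FPKM in wild type mice and 1.83, 2.03, 2.00 and 2.74 in the labelled cKO mice, with a log2 fold change of 0.45 (95% interval -0.20 to 1.11, adjusted p = 0.205). *Camp* lay between 0 and 0.743 FPKM in wild type mice and between 0 and 0.964 in the labelled cKO mice, and *Ltf* was at most 0.153 in either group. Both were below the filter.

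Transcript length moved with these differences. The defensin transcripts are among the shortest of the annotation, with 204 bases for *Defb14*, 323 for *Defb6* and 872 for *Defb1*, against 876 for *Slpi* and 915 for *Lcn2*. Over the other genes tested at 2 weeks, the median log2 fold change was 0.64 for the 805 genes of 500 to 1000 bases, of which 22.7% were called up, and -0.46 for the 3903 genes of 4000 bases or more, of which 4.51% were called up. In the 101 genes under 500 bases, 28.7% were called up, and the quartiles were -0.18 and 1.41. *Defb6* and *Defb14* lay above that upper quartile. When the trend of each sample with length and GC content was removed, the log2 fold change was -0.15 for *Defb6* (adjusted p = 0.537), 0.29 for *Defb1* (adjusted p = 0.0722) and 3.01 for *Defb14* (adjusted p = 0.0134), so none of the 3 was called. *Lcn2*, at 2.53 (adjusted p = 2.00e-05), and *Slpi*, at 2.45 (adjusted p = 1.87e-05), were still called. For each of the 3 defensins this lowered the fold change by more than the median of its length class. That median was 0.90 under 500 bases and 0.64 at 500 to 1000 bases. The trend rests on few genes as short as *Defb6* and *Defb14*, so the loss of these calls is itself uncertain. Length and GC content were removed together, so their parts are not told apart. *Defb1* and *Slpi* were alike in length but had 39.7% and 54.2% GC.

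**Figure D2:**
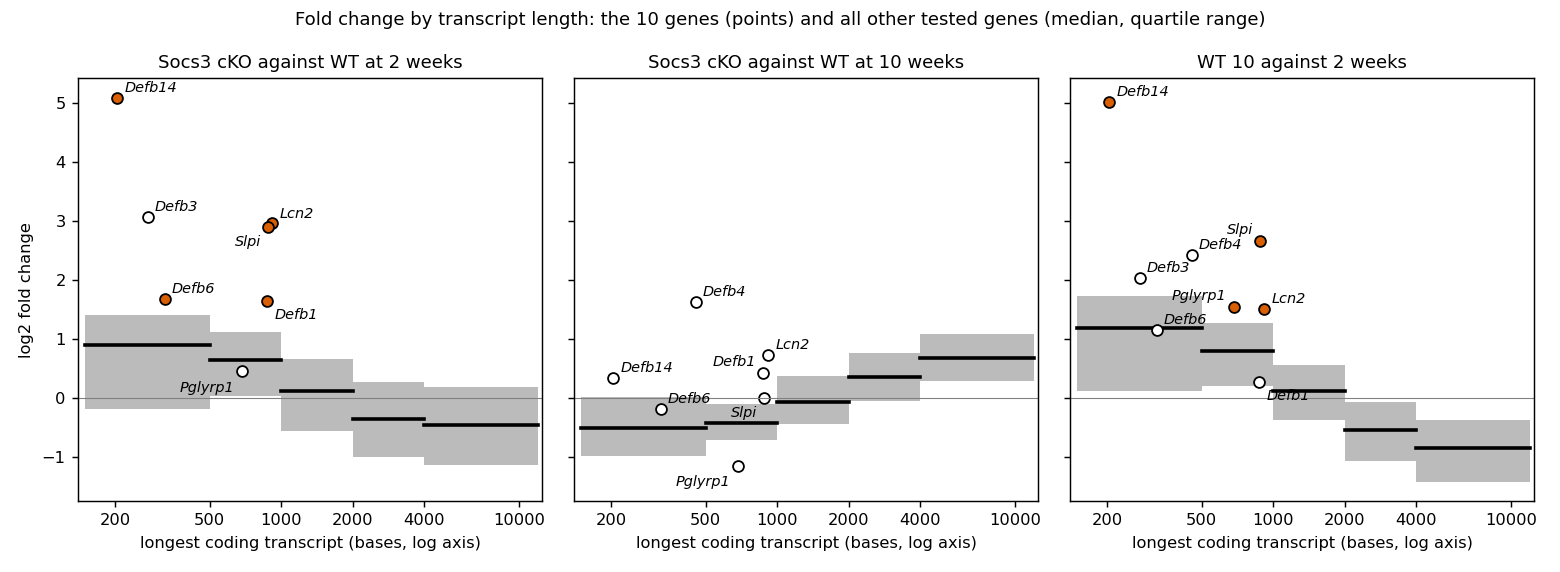
Log2 fold change against the length of the longest coding transcript in bases (log axis) in 3 comparisons; points are the members tested (filled where called), and for the other genes each length class shows its median (black line) and quartile range (grey). Short genes had higher fold changes than long genes at 2 weeks and with age in the wild type, and lower ones at 10 weeks. The calls of *Defb1*, *Defb6* and *Defb14* at 2 weeks were lost once the joint trend with length and GC content was removed. Those of *Lcn2* and *Slpi* were not.

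Of the summed FPKM of the 5 beta-defensin members, *Defb6* made up most in every mouse, with the lowest share, 76.4%, in a labelled cKO mouse at 10 weeks. Other beta-defensin genes are not in these sums. Among them *Defb8* was at 191 FPKM in replicate 1 of the labelled cKO mice at 10 weeks, where the 5 members summed to 642. The FPKM of the 5 genes summed to between 269 and 295 in wild type mice at 2 weeks and between 585 and 1518 in the labelled cKO mice. At 10 weeks the sums were 473 to 905 in wild type mice and 364 to 767 in the labelled cKO mice. *Defb6* made up 88.8% to 90.3% of the sum in the wild type at 2 weeks and 85.5% to 88.1% in the labelled cKO mice. The share of *Defb14* was at most 0.66% in the wild type at 2 weeks, and 2.11% to 3.53% in the labelled cKO mice of that age. *Defb6* exceeded *Defb1* by 8.24 to 9.27 times in the wild type and 8.0 to 10.1 times in the labelled cKO mice, so the ratio overlapped between genotypes at 2 weeks. In the wild type at 10 weeks it was 15.7 to 16.8 times, above every mouse of the other groups, which reached at most 13.9. With the length and GC trend removed, the log2 changes with age in the wild type were nearly equal, -0.56 for *Defb6* and -0.58 for *Defb1*.

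**Figure D3:**
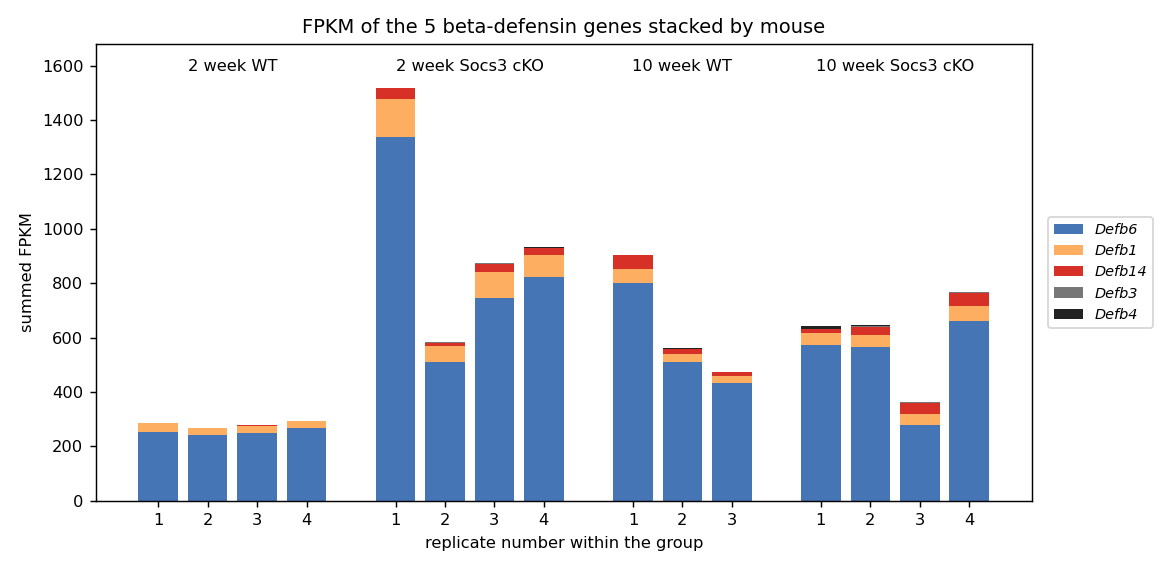
FPKM of the 5 beta-defensin genes stacked for each mouse, grouped by age and label, with the replicate number on the horizontal axis and summed FPKM on the vertical axis. *Defb6* takes most of every bar, *Defb14* is seen in every group but the wild type at 2 weeks, and the 4 wild type bars at 2 weeks are the lowest, between 269 and 295 FPKM.

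At 10 weeks none of the 10 genes was called in either direction, where 12.5% of the 13105 genes tested were called up and 2.43% down. With median-of-ratios scaling these shares were 7.66% and 5.03%, and with quantile normalization 7.04% and 5.92%. By limma, 2 members had an unadjusted p below 0.05, as did 48.7% of all genes tested. The median log2 fold change of the 7 members tested was 0.34, against 0.31 over all genes tested, and *Defb4* was among the 7 mainly through its values in the labelled cKO mice. With 3 wild type mice against 4, the exact permutation test cannot go below 0.0571.

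*Pglyrp1* was the only member whose groups did not overlap at 10 weeks, and it was lower in the labelled cKO mice. The wild type mice had 4.71, 4.45 and 4.76 FPKM, and the labelled cKO mice had 1.53, 1.29, 3.16 and 2.71. Of all genes tested, 11.1% had every labelled cKO mouse below every wild type mouse. The log2 fold change was -1.15 (SE 0.32, adjusted p = 0.0196, exact permutation p = 0.0571), short of the threshold. It passed with median-of-ratios scaling (-1.44, adjusted p = 0.00925) and with quantile normalization (-1.54, adjusted p = 0.00810), and it was -0.51 (adjusted p = 0.226) with the length and GC trend removed.

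*Lcn2* was at 4.58, 6.11 and 5.30 FPKM in the wild type at 10 weeks and at 8.41, 7.23, 17.1 and 5.98 in the labelled cKO mice. Replicate 4 of the labelled cKO mice fell within the wild type range. The log2 fold change was 0.74 (95% interval 0.00 to 1.47, adjusted p = 0.101).

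For *Slpi* the wild type mice spread from 5.05 through 13.1 to 20.6 FPKM, and the labelled cKO mice were at 6.05, 7.23, 35.01 and 9.72. One labelled cKO mouse, replicate 3, was the highest for both *Slpi* and *Lcn2*. The difference of the log2 means was close to 0, with a 95% interval of -1.38 to 1.37, an interval that leaves both direction and size undecided.

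The beta-defensins at 10 weeks overlapped between the genotypes. *Defb6* was at 803, 509 and 431 FPKM in wild type mice and 574, 564, 278 and 661 in the labelled cKO mice (log2 fold change -0.18, 95% interval -0.94 to 0.57). *Defb1* was at 50.4, 30.3 and 27.5 and at 41.3, 46.6, 42.8 and 56.5 (0.42, 95% interval -0.09 to 0.93). *Defb14* was at 51.4, 20.5 and 13.0 and at 15.7, 29.8, 37.4 and 48.1 (0.34, 95% interval -0.72 to 1.40). The interval of *Defb14* at 10 weeks ends well below the 5.09 fitted at 2 weeks, and the difference between the ages was tested as an interaction.

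*Defb4*, an inducible beta-defensin, varied widely among the labelled cKO mice at 10 weeks. It was listed at 10.3, 3.08, 2.14 and 0 FPKM there and at 0.239, 1.95 and 0.121 in the wild type (log2 fold change 1.62, adjusted p = 0.365). That value was between 0.74, without labelled cKO replicate 1, and 2.97, without the mouse listed at 0 (adjusted p = 0.0257), when single mice were left out. Of the 38 other beta-defensin genes in the files, 14 were listed at 0 in every mouse and none passed the filter. *Defb8* had the highest mean of these, with 191 and 27.8 FPKM in replicates 1 and 2 of the labelled cKO mice at 10 weeks, 0 and 0.637 in replicates 3 and 4, and at most 0.380 elsewhere. The mice with the most *Defb8* were thus those with the most *Defb4*. *Defb3* was at 0.506, 0 and 1.02 in wild type mice and 0.506, 0.932, 3.52 and 0.939 in the labelled cKO mice and was not tested. *Camp* reached 2.18 in 1 wild type mouse and was at most 0.707 in the labelled cKO mice, and *Ltf* was at most 0.339.

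**Figure D4:**
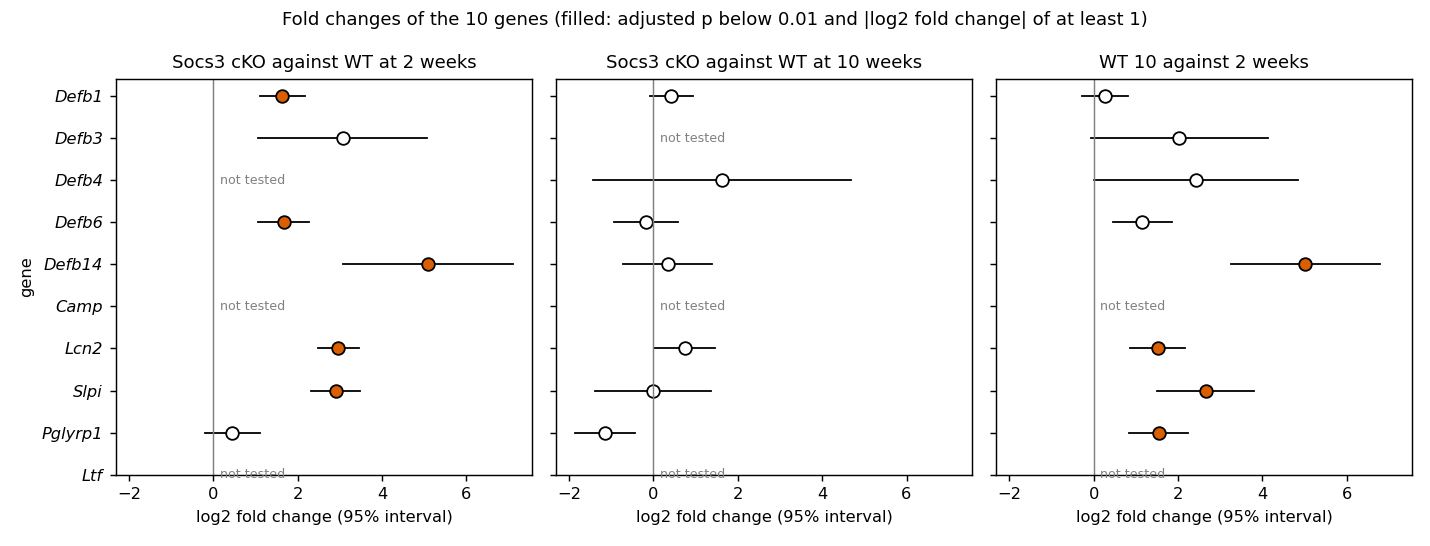
Log2 fold change with its 95% interval for each gene in 3 comparisons; filled points were called (adjusted p below 0.01 and |log2 fold change| of at least 1), open points were not, and genes below the filter are marked as not tested; where the wild type was listed at 0 (*Defb3* and *Defb4* at 2 weeks) the plotted value depends on the pseudocount. *Defb1*, *Defb6*, *Defb14*, *Lcn2* and *Slpi* were called at 2 weeks, none at 10 weeks, and *Defb14*, *Lcn2*, *Slpi* and *Pglyrp1* with age in the wild type.

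The difference between the ages was tested as a genotype by age interaction over all 4 groups. Of the 10 genes, 4 were called, all with a lower labelled cKO to wild type ratio at 10 weeks than at 2 weeks. Over the 13937 genes tested, 7.05% were called in that direction and 18.5% in the other (adjusted p below 0.01). That balance depended on the scaling, with 10.8% and 14.1% by median-of-ratios scaling and 16.3% and 13.5% by quantile normalization. The interaction on the log2 scale was -2.22 for *Lcn2* (adjusted p = 0.00121), -4.76 for *Defb14* (adjusted p = 0.00455), -1.86 for *Defb6* (adjusted p = 0.00528) and -2.90 for *Slpi* (adjusted p = 0.00656). *Defb1*, at -1.22 (adjusted p = 0.0115), and *Pglyrp1*, at -1.61 (adjusted p = 0.0105), narrowly missed the threshold. The median over all genes was 0.55. Once the length and GC trend was removed none of the 4 was called, with -1.42 for *Lcn2* (adjusted p = 0.0239), -2.05 for *Slpi* (adjusted p = 0.0248), -1.85 for *Defb14* (adjusted p = 0.169) and 0.56 for *Defb6* (adjusted p = 0.210). *Lcn2* was called whichever mouse was left out. It was the only gene called without wild type replicate 1 at 10 weeks, and without any 1 of the wild type mice at 2 weeks *Defb6* and *Slpi* were not called. *Slpi* was called in only 4 of the 15 fits that left out a mouse.

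The levels of the wild type themselves changed between 2 and 10 weeks. Of the 10 genes, 4 were called up and none down, where 6.18% of the 13937 genes were called up and 19.4% down (10.2% and 13.3% by median-of-ratios scaling, 11.6% up and 12.2% down after quantile normalization). The wild type mice at 2 weeks also enter the 2-week comparison and the interaction, so the comparisons are not independent. *Defb14* was listed at 0 to 1.84 FPKM at 2 weeks and at 13.0 to 51.4 at 10 weeks, a log2 fold change of 5.02 (SE 0.82, adjusted p = 0.000297). The ranges did not meet. In *Slpi* it was 2.66 (SE 0.54, adjusted p = 0.00129), in *Lcn2* 1.51 (SE 0.30, adjusted p = 0.00116) and in *Pglyrp1* 1.55 (SE 0.33, adjusted p = 0.00173). *Pglyrp1* differed from the rest in that its mice at 10 weeks lay within a narrow range, 4.45 to 4.76 FPKM. *Defb6* was at 240 to 266 FPKM at 2 weeks and at 431 to 803 at 10 weeks without overlap, but its log2 fold change of 1.15 did not pass (adjusted p = 0.0106). *Defb1* gave 0.27 (95% interval -0.27 to 0.81). Groups did not overlap in 6 of the 10 genes, all higher at 10 weeks, as in 17.3% of the genes tested. *Defb4*, among these 6, was listed at 0 in all wild type mice at 2 weeks and at 0.121 to 1.95 FPKM at 10 weeks. It passed the filter mainly through the labelled cKO mice. With the length and GC trend removed, *Defb14* (2.90, adjusted p = 0.00604) and *Slpi* (1.98, adjusted p = 0.00410) were still called, *Lcn2* (0.88, adjusted p = 0.0435) and *Pglyrp1* (0.68, adjusted p = 0.0977) were not, and *Defb6* (-0.56) and *Defb1* (-0.58) changed sign.

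Between 2 and 10 weeks none of the 10 genes was called in the labelled cKO mice, where 2.01% of the genes tested were called up and 1.53% down. By limma, 3 members had an unadjusted p below 0.05, as did 26.4% of all genes tested. *Defb1* was lower at 10 weeks in every mouse (41.3 to 56.5 FPKM against 60.9 to 140.5), as were 6.79% of the genes tested, and its log2 fold change was -0.95 (SE 0.24, adjusted p = 0.0200). Without replicate 2 of the labelled cKO mice at 2 weeks it was -1.14 and was called (adjusted p = 0.00472). *Lcn2* gave -0.71 (95% interval -1.31 to -0.11) and *Defb6* -0.70 (95% interval -1.36 to -0.05). *Slpi* (-0.24, 95% interval -1.31 to 0.82), *Defb14* (0.26, 95% interval -1.37 to 1.89) and *Pglyrp1* (-0.06, 95% interval -0.71 to 0.59) had intervals on both sides of 0. Set side by side, *Defb14* was therefore at 12.3 to 40.5 FPKM in the labelled cKO mice at 2 weeks, 13.0 to 51.4 in wild type mice at 10 weeks and 15.7 to 48.1 in the labelled cKO mice at 10 weeks, with only the wild type at 2 weeks apart.

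Markers of other cells also differed between these groups. Of 21 neutrophil markers, 20 were in the files, and their summed FPKM was 152 to 184 in wild type mice at 2 weeks, 280 to 538 in the labelled cKO mice at 2 weeks, 32.3 to 85.9 in wild type mice at 10 weeks and 43.8 to 1963 (median 74.85) in the labelled cKO mice at 10 weeks. Much of each sum came from few genes. At 2 weeks mean *S100a8* was 6.69 in wild type and 183 in labelled cKO mice, and *S100a9* 5.23 and 127. *Stfa1* went the other way, from 140 to 81.6. Of the 8 tested at 2 weeks, the calprotectin genes *S100a8* (log2 fold change 4.77) and *S100a9* (4.60) were called up, and both are also made by keratinocytes. At 10 weeks none of the 10 tested was called. With age in the wild type, 2 markers were called up, *Clec4d* (2.76) and *Cxcr2* (2.34), and 1 down, *Stfa1* (-4.59). With age in the labelled cKO mice *Csf3r* was called up (1.78) and none down. Mean *Cxcr2* was 1.04 FPKM in wild type and 1.79 in labelled cKO mice at 2 weeks, and 5.70 and 2.91 at 10 weeks. Of the 20, between 3 and 7 had a mean below 0.1 FPKM in a group, and 6 or 7 were at 1 FPKM or more in every mouse of a group. Among the granule genes, *Elane* was at most 0.172 FPKM in any mouse, *Ngp* 0.257, *Prtn3* 0.733 and *Mpo* 2.12, and *Mpo* was listed at 0 in all wild type mice at 2 weeks. *Ctsg*, also a granule protease gene, was at 1.17 to 2.42 FPKM in wild type and 1.89 to 5.30 in labelled cKO mice at 2 weeks (log2 fold change 0.79, adjusted p = 0.0892), and at 1.0 to 3.73 and 3.40 to 8.04 at 10 weeks (1.27, adjusted p = 0.0481). Of *Camp*, *Ltf*, *Pglyrp1* and *Lcn2*, which maturing neutrophils also express, only *Lcn2* was above 10 FPKM in the labelled cKO mice at 2 weeks.

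Red blood cell transcripts differed between the same groups. The summed FPKM of the 4 red blood cell markers was 458 to 531 in wild type mice at 2 weeks, 2704 to 7432 in the labelled cKO mice at 2 weeks, 4683 to 6915 in wild type mice at 10 weeks and 673 to 2110 in the labelled cKO mice at 10 weeks. All 4 were called up at 2 weeks and with age in the wild type, and 3 were called down at 10 weeks. The 6 fibroblast markers summed to 12110 to 14210 in wild type mice at 2 weeks and 2412 to 6964 in all other mice, and 3 of them were called down at 2 weeks. Of the 5 skeletal muscle markers, 3 were called up at 2 weeks, with sums of 429 to 649 in wild type mice and 950 to 1539 in the labelled cKO mice. The 12 keratinocyte markers summed to 11200 to 12050 and 7880 to 15950 in the same groups. Among them *Krt14* was called up (1.02) and none down, but only 4 of the 12 had a log2 fold change above 0 (median -0.465). Of the 8 macrophage markers, none was called at 2 weeks and 6 were called up at 10 weeks. The part of these cells and of blood in the levels of the 10 genes was not tested.

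Other genes with antimicrobial products were compared to place the 10 genes in their family. Of 20 such genes, 15 were tested at 2 weeks, of which 7 were called up and 1 down (7.24% and 7.19% of all genes tested). The S100 genes moved furthest. *S100a8* had a mean FPKM of 6.69 ± 2.54 in wild type mice and of 183 ± 52.4 in labelled cKO mice (SD, n = 4 each). For *S100a9* these means were 5.23 ± 2.31 and 127 ± 49.8, and *S100a7a* fell from 19.2 ± 3.76 to 0.426 ± 0.278. The median log2 fold change of the 15 was 1.17. At 10 weeks, 4 of 14 were called up and none down, namely *Ccl20* (log2 fold change 5.15), a chemokine that shares the receptor CCR6 with beta-defensins, *Pglyrp3* (2.30), *Hp* (1.87) and *Rnase4* (1.15). *Pglyrp3* encodes an epidermal relative of *Pglyrp1* and was higher in the labelled cKO mice at 10 weeks, where *Pglyrp1* gave -1.15.

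Cytokines and receptors known to induce these peptides were compared at both ages. Of 21 such genes, 14 were tested at 2 weeks and 4 were called up, with the IL-36 cytokine genes *Il1f8* (log2 fold change 3.41), *Il1f6* (3.30) and *Il1f9* (2.46) in front. At 10 weeks 12 of 18 tested were called up, led by *Il6* (7.84), *Il1b* (4.88) and *Il1rl2* (4.14), the IL-36 receptor gene. None was called down at either age. Over all genes tested, 7.24% were called up and 7.19% down at 2 weeks, and 12.5% and 2.43% at 10 weeks. At 10 weeks 2.09% of the other genes of 500 to 1000 bases were called up, and 20.8% of those of 4000 bases or more. The part of transcript length in the counts of this paragraph was not tested. By the interaction test 9 of 18 cytokine and receptor genes had a higher labelled cKO to wild type ratio at 10 weeks than at 2 weeks, as did 18.5% of all genes tested. By the same test *Il1f9* had a lower ratio (-2.87, adjusted p = 0.000198), the direction seen for the 4 called members. Among 22 signal transducers, transcription factors and pattern receptors, 19 were tested at both ages. At 2 weeks *Tlr4* was called up (1.70) and *Vdr*, the vitamin D receptor, was called down (-1.88). At 10 weeks 13 were called up, led by *Nod2* (3.74), *Nfkbiz* (3.67) and *Cebpd* (2.85), and none down. Of 15 receptors and processing proteases of the peptides, 9 were tested, and only *Spink5*, the inhibitor of epidermal kallikreins, was called, at 2.47 at 2 weeks and 1.12 at 10 weeks.

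The genes whose pattern over the 15 mice was most like that of a called member were found by the mean absolute difference of log2(FPKM + 0.1) after centring each gene. For *Defb6* they were *Gsta2* (0.15), *Gm10639* (0.17) and *Mocs2* (0.18), where the median over all genes was 0.83. For *Defb1* the 3 nearest were *Hebp2* (0.15), *Hiatl1* (0.16) and *Nt5c3* (0.17), with a median of 0.75. *Skint11* (0.69), *2300005B03Rik* (0.73) and *Ear5* (0.81) were nearest to *Defb14*, which varied more, so that the median was 2.14. *Lcn2* was closest to *Atp13a5* (0.32), *Chi3l1* (0.33) and *Hsd11b1* (0.38), and *Slpi* to *Lce3c* (0.34), *Orm2* (0.47) and *Il33* (0.48). *Skint11*, for instance, had a mean FPKM of 0.890 in the wild type at 2 weeks and of 14.6 to 16.8 in the other 3 groups.

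The stretches upstream of the start were in the RefSeq table (GRCm38.p6) for 7 of the 10 genes, namely *Defb3*, *Defb6*, *Camp*, *Lcn2*, *Slpi*, *Pglyrp1* and *Ltf*. *Defb3* and *Defb6* are shown because they are alike in sequence and far apart in level, and *Lcn2* because its rise at 2 weeks was the most even. Capitals mark matches on either strand to GGGNNNNNCC, a core of NF-kB sites, and to TTNNGNAA, a core of C/EBP sites. The sequences end at the base before the first annotated start, on the strand of the gene.
*Defb6* (chr8:19225228-19225477, plus strand): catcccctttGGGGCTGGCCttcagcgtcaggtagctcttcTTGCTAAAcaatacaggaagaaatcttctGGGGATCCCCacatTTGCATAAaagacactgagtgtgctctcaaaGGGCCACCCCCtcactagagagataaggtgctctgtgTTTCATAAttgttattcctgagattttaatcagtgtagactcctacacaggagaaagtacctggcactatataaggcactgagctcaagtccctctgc
*Defb3* (chr8:19293111-19293359, plus strand): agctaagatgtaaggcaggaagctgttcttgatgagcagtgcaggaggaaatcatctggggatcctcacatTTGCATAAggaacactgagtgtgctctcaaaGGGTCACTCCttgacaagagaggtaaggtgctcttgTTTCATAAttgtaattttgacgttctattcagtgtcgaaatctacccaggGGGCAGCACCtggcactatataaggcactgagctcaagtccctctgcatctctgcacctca
*Lcn2* (chr2:32387798-32387989, minus strand): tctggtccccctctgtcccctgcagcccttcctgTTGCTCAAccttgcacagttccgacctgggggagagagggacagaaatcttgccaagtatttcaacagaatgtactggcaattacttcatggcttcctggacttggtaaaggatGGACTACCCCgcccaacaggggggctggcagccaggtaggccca
The upstream stretches of *Defb6* and *Defb3* were 81.7% identical over 235 aligned bases, and both held TATAAN near the start. Their levels at 2 weeks were nevertheless 509 FPKM or more against 1.99 or less in the labelled cKO mice. Within 250 bases, *Defb6* held 4 matches to the NF-kB letters (of which a pair overlaps) and 3 to the C/EBP letters, *Defb3* held 2 and 2, and *Lcn2* held 1 of each. Over the 7 genes, 5 held the NF-kB letters, 5 the C/EBP letters and none TTCNNNGAA, the core of STAT sites. Of 32851 upstream stretches of the same length, 45.8%, 36.8% and 7.0% held them. Such matches describe letters and not bound sites, and a missing match says only that these letters are not in this window.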

How the data were processed

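RNA-Seq of ear RNA (TruSeq v2, single reads of 50 bases, HiSeq) was analysed for 15 mice. The study states more wild type mice, and the rest were not analysed here. The authors aligned the reads to mm9 with TopHat2 2.1.0 and deposited 1 FPKM value per gene. Cufflinks is named in the submitters' processing notes without a version. The authors tested counts with another tool, and these were not used here. The mapped reads per library were estimated from the spacing of low values (11700000 to 16800000), with lengths of the longest coding transcripts.

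The labels gave the groups and the replicate numbers. Values were analysed as log2(FPKM + 0.1) with limma 3.58.1 (R 4.3.3, trend in the prior variance, 2-sided, Benjamini-Hochberg over all genes tested) on genes that reached an FPKM of 1 in 3 or more samples. Genotypes were compared within each age. The interaction and the changes with age were fitted on all 4 groups. Genes were called at an adjusted p below 0.01 and |log2 fold change| of at least 1 (for the interaction, the p alone). Exact permutation tests of single genes used scipy 1.17.1. Nothing states that replicates shared a litter or day. Tested on simulated data for the 2-week comparison, with 13393 genes, the fit recovered 98 of 100 genes changed by 1.5 and 100 of 100 changed by 3 on the log2 scale.

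The members and gene lists were chosen with earlier results of these data known. All members are described. From each list at most 3 called genes with the largest |log2 fold change| per comparison were named, or, without a call, up to 2 with the highest mean. Further genes named one by one (*Mpo*, *Elane*, *Ngp*, *Prtn3*, *Ctsg*, *Defb8* in single mice, *Pglyrp3* beside *Pglyrp1*, *Rnase4*, *Skint11*) were picked after their values were seen. Likeness took the 3 nearest genes. Transcript lengths and positions came from a GENCODE annotation of mm9, and 19443 genes (92.1%) had a length and GC content. Alternatives were pseudocounts of 1 and 0.01, other filters, scalings and prior variance, 1 fit of all groups, removal of the length and GC trend, the replicate block and leaving out each mouse.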

Additional observations from a re-analysis of the deposited data

Results flagged for a closer look

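In 3 of the 28 groups of 4 mice that were checked, the lowest mouse stood far from the others. All 3 of these mice were listed at 0 beside values of few reads. There the gap is set by the pseudocount and by counting, so no rate by chance is given. *Defb14* was listed at 0 in wild type replicate 4 at 2 weeks, against 1.08 to 1.84 FPKM in the other 3 mice (about 1, 1 and 2 reads). *Defb3* was listed at 0 in replicate 1 of the labelled *Socs3* cKO mice at 2 weeks, against 1.36 to 1.99 (about 3, 4 and 3 reads). *Camp* was listed at 0 in replicate 1 of the labelled *Socs3* cKO mice at 10 weeks, against 0.570 to 0.707 (about 5, 4 and 4 reads). What the zeros stand for was not tested.

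The difference between labelled *Socs3* cKO and wild type mice was smaller or turned at 10 weeks for 4 genes by the interaction test. It changed by -1.86 for *Defb6*, -4.76 for *Defb14*, -2.22 for *Lcn2* and -2.90 for *Slpi* on the log2 scale (limma, adjusted p between 0.00121 and 0.00656). In each of the 4, the wild type was higher at 10 weeks than at 2 weeks in every mouse, and the labelled *Socs3* cKO mice of both ages overlapped.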

How the results depend on the processing

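Of the log2 fold changes recomputed gene by gene under the alternatives, 722 kept their direction and their side of the threshold, 39 lost the call, 25 gained it and 26 changed sign (2 of which are among the lost calls). Removing the length and GC trend mattered most: the members called fell to 2 of 5 at 2 weeks, 0 of 4 in the interaction and 2 of 4 with age in the wild type, and the following log2 fold changes changed sign. They were -0.15 for *Defb6* at 2 weeks, 0.39 for *Defb6* and 0.41 for *Slpi* at 10 weeks, 0.17, 1.12, 0.64 and 0.56 for *Defb1*, *Defb3*, *Defb4* and *Defb6* in the interaction, -0.58 for *Defb1* and -0.56 for *Defb6* with age in the wild type, and 0.081 for *Pglyrp1* with age in the labelled cKO mice. Median-of-ratios scaling and quantile normalization each gave 1 call at 10 weeks (*Pglyrp1*). A pseudocount of 1 turned *Defb4* in the interaction to 0.28. Leaving out each mouse gave 3 to 6 members called at 2 weeks, 1 to 6 in the interaction, 3 to 5 with age in the wild type and 0 to 1 with age in the labelled cKO mice. It also spanned 0 at 10 weeks for *Defb6* (-0.37 to 0.094), *Defb14* (-0.10 to 0.89) and *Slpi* (-0.56 to 0.44), and with age in the labelled cKO mice for *Defb3* (-0.46 to 1.004), *Defb14* (-0.083 to 0.58), *Slpi* (-0.80 to 0.043) and *Pglyrp1* (-0.26 to 0.15). Same-numbered mice did not deviate together (r across genes -0.041 to 0.135 at 2 weeks and -0.209 to 0.068 at 10 weeks), so the numbers were not taken as pairs. With the replicate number as a block, 4 members were called at 2 weeks (*Defb14* lost, adjusted p = 0.0105), 0 at 10 weeks, where *Slpi* turned to 0.057, and 4 in the interaction. The cause of these changes was not tested. Depth limits *Defb14* in the wild type at 2 weeks and *Defb3* and *Camp* throughout, which rest on few reads.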
